A study of Mus musculus with 8 samples.

Results

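Mammary glands that had received small extracellular vesicles (sEVs) of tumor cells, of either kind, were compared with glands that had received control sEVs. The 5 libraries with tumor sEVs, 3 from glands injected with sEV-NORM and 2 from glands injected with sEV-HYP, were pooled and set against 3 sEV-CTRL libraries, so that the comparison used all 8 libraries of the series. The sEVs came from AT3 cells, which are mammary adenocarcinoma cells of the mouse that metastasize, kept in normoxia (sEV-NORM) or at 1% oxygen (sEV-HYP), whereas sEV-CTRL was prepared from medium that no cell had conditioned. All glands were from female C57BL/6 mice, with no engineered allele or tumor stated for them, injected once in the mammary gland, and polyA RNA of the whole gland was sequenced 6 weeks later. The age of the mice is not given in the sources used here, and the number of animals per group that the study gives equals its libraries, although the labels tie no library to an animal, so P values measure the spread between libraries. Of 51789 genes, 17303 had enough counts to be tested, in libraries of 18194996 to 24622569 counts.

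sEVs are membrane-bound particles that cells release with proteins, RNA and lipids of their cell of origin, and that other cells can take up. The mammary gland of a nonlactating mouse consists of epithelial ducts, with luminal and basal layers, in a fat pad of white adipocytes with vessels, fibroblasts and immune cells, and a lymph node and strips of skeletal muscle can come along when it is dissected. The comparison asks what a gland shows after any tumor sEVs, as opposed to what depends on hypoxia of the cells that released them.

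The libraries carried the markers of the labelled tissue. Summed CPM (counts scaled to library size after TMM) of 13 white adipocyte markers was 21570 to 30760 in sEV-CTRL and 18030 to 36750 with tumor sEVs, and that of 20 luminal epithelial markers was 1285 to 2422 and 1888 to 2565. Csn2, the beta-casein of milk, was at most 4.99 CPM in every library. Of the 13 lists of cell type markers, skeletal muscle varied most between libraries: its 20 markers summed to 926, 13150 and 3225 CPM in sEV-CTRL 1 to 3, to 4265, 63.8 and 2239 CPM in sEV-NORM 1 to 3, and to 6728 and 18160 CPM in sEV-HYP 1 and 2. The muscle content overlapped between tumor sEVs and control, and its part in any single result was not tested beyond the fit with muscle content as a covariate. In whole glands, fewer cells of a type and less RNA per cell cannot be told apart.

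Few genes separated tumor sEVs from control. At an unadjusted P under 0.05, the threshold the study states, edgeR's quasi-likelihood F-test gave 251 genes, 130 higher (0.751% of those tested) and 121 lower (0.699%) with tumor sEVs. A gene is said below to pass when it meets this threshold, without adjustment. This is 1.45% of genes, where 5% pass such a threshold when no gene differs and P values are spread evenly. After Benjamini-Hochberg adjustment, edgeR called 0 genes (0%), with a smallest adjusted P of 0.9999. DESeq2, run on the same pooled groups, gave 280 genes at an unadjusted P under 0.05, and 2 at an adjusted P under 0.05, Gm14288 (higher) and Ighv14-4 (lower). The median log2 fold change of all genes was 0.0047, and 51.0% of them were higher with tumor sEVs. The count depended on which controls were used: without sEV-CTRL 1 it was 461 genes (2.59% of those then tested), and without sEV-CTRL 2 it was 1306 genes (7.38%), whereas leaving out any other library gave 174 to 267. The genes changed more than these counts do: of the 251, only 93 were among the 247 called without sEV-CTRL 3. In none of these fits did edgeR call a gene after adjustment.

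**Figure D1:**
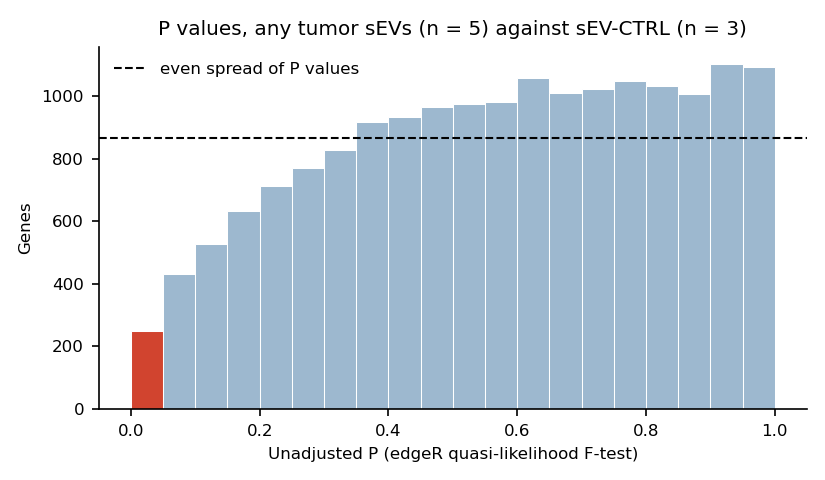
Number of genes (vertical axis) by unadjusted P of edgeR's test (horizontal axis, bins of 0.05) for 5 tumor sEV libraries against 3 sEV-CTRL libraries. The red bar, at 251 genes, is the shortest, and the dashed line marks the 865 genes that each bin would hold if P values were spread evenly.

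Genes common to both sEV types were taken as those with an unadjusted P under 0.05 in the pooled test and with every tumor sEV library on the same side of every control library. There were 113 such genes, 65 higher (0.376% of genes tested) and 48 lower (0.277%) with tumor sEVs, with a median log2 fold change of 0.84 among the higher and of -0.81 among the lower genes. Without regard to P, the libraries of the groups did not overlap for 248 genes, 1.43% of those tested. With labels given at random, 5 and 3 libraries separate in this way with a probability of 0.0357, which is above that share. Taken one sEV type at a time in a model of the 3 groups, 40 genes (0.231%) passed for sEV-NORM and also for sEV-HYP, in the same direction against control, 26 of them higher and 14 lower. Both of these comparisons use the same control libraries. Of the 113 common genes, 31 passed for each sEV type alone, 34 for sEV-NORM alone, 21 for sEV-HYP alone and 27 only when pooled. Between sEV-HYP and sEV-NORM themselves, 2 of the 113 had an unadjusted P under 0.05, beside 690 of all 17303 genes tested. A difference between the sEV types adds to the spread in the pooled test, so such genes were less likely to enter the 113. With each of the 8 libraries left out in turn, 29 of the 113 kept an unadjusted P under 0.05 throughout, beside 34 of the 251. The 113 are part of the 251 and were chosen for separation in these same libraries, which favors this outcome. The number of common genes by this definition was 377 without sEV-CTRL 1, 1081 without sEV-CTRL 2, 202 without sEV-CTRL 3 and 172 without sEV-NORM 1, and that of genes with P under 0.05 for each sEV type was 118, 366 and 64 without sEV-CTRL 1, 2 and 3 and 21 without sEV-HYP 1. No overlap is easier to meet with fewer libraries, so the number of common genes can rise whichever control is left out.

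Among the genes higher with tumor sEVs of both types, the transcription factor Egr2, a zinc-finger protein induced early by growth factor signals, stood at 2.39, 2.24 and 2.96 CPM in sEV-CTRL 1 to 3, at 4.06, 5.77 and 5.02 CPM in sEV-NORM 1 to 3 and at 7.93 and 4.18 CPM in sEV-HYP 1 and 2. All tumor sEV libraries were thus above all controls, sEV-HYP 1 the highest. Egr2 (ENSMUSG00000037868, chromosome 10, 67535475 to 67542188 on GRCm38) differed by a log2 fold change of 1.09 (SE 0.28, edgeR unadjusted P = 0.00293), of 0.97 for sEV-NORM and 1.26 for sEV-HYP. Its relative Egr1, of the same family of early genes, was at 15.7, 18.1 and 26.6 CPM in the controls, at 45.5, 29.98 and 43.1 CPM with sEV-NORM and at 30.9 and 19.4 CPM with sEV-HYP. Here sEV-HYP 2 lay below sEV-CTRL 3, so Egr1 (log2 fold change 0.75, SE 0.28, edgeR unadjusted P = 0.0258) was not among the common genes, and its P was over 0.05 without any one of sEV-CTRL 1, sEV-CTRL 2, sEV-NORM 1 and sEV-NORM 3. Egr3, the third member listed, had a log2 fold change of -0.24 (edgeR unadjusted P = 0.463). Of the 19 immediate early genes tested, 15 had a fitted level above control, beside 51.0% of all genes, and 2 passed as higher, Egr1 and Egr2, beside 0.751% of all genes. The median log2 fold change of the list was 0.15, and 0.05 without sEV-CTRL 3 to 0.39 without sEV-CTRL 2.

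Krt15, a keratin of basal epithelial cells, was at 0.102, 0.365 and 0.547 CPM in sEV-CTRL, at 1.21, 1.11 and 4.02 CPM with sEV-NORM and at 1.97 and 1.34 CPM with sEV-HYP. Its log2 fold change of 2.50 (SE 0.64, edgeR unadjusted P = 0.00292) was the highest of the 12 leading higher genes, at a low level of expression. Krt15 (ENSMUSG00000054146, chromosome 11, 100131758 to 100135928) was highest in sEV-NORM 3, the library in which the 14 keratinocyte and skin markers summed to 107 CPM, against 9.36 to 13.2 CPM in every other library. Without sEV-NORM 3 and the other libraries in turn, the log2 fold change of Krt15 ranged from 2.04 to 2.99, with a P under 0.05 in each case. The skin marker Dsg1a, a desmoglein of keratinocyte junctions, was at 10.4 CPM in sEV-NORM 3 and at 0.319 to 0.803 CPM elsewhere, and its pooled log2 fold change of 2.68 (SE 1.17, edgeR unadjusted P = 0.0442) became 0.77 without that library. The P of Dsg1a was over 0.05 without sEV-NORM 3 or without any one control. The part of skin in the level of Krt15 was not tested. The basal keratins Krt5 and Krt14 overlapped between the groups, at 6.65 to 12.9 and 4.01 to 5.70 CPM in the controls and at 7.10 to 13.8 and 3.86 to 7.86 CPM with tumor sEVs.

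Of the other leading higher genes, Adamts18, a secreted metalloprotease, was at 0.559, 1.46 and 0.602 CPM in the controls, at 2.61, 2.13 and 1.70 CPM with sEV-NORM and at 3.62 and 3.37 CPM with sEV-HYP (log2 fold change 1.60, SE 0.42, edgeR unadjusted P = 0.00357). Tnfaip6, which encodes a hyaluronan-binding protein induced in inflammation, was at 4.06, 5.29 and 3.89 CPM in the controls, at 8.89, 5.46 and 6.67 CPM with sEV-NORM and at 9.85 and 9.10 CPM with sEV-HYP (log2 fold change 0.85, SE 0.25). For both genes every library with sEV-HYP was above every library with sEV-NORM or control, but the difference between the sEV types did not pass, at a log2 fold change of 0.70 (SE 0.44, edgeR unadjusted P = 0.148) for Adamts18 and of 0.43 (SE 0.27, edgeR unadjusted P = 0.146) for Tnfaip6. Adam12, a membrane-anchored metalloprotease, was expressed at a higher level, 53.8 to 63.6 CPM in the controls and 69.4 to 89.8 CPM with tumor sEVs, and differed by a log2 fold change of 0.41 (SE 0.13). Tpbg, a trophoblast glycoprotein of the cell surface, was at 8.28 to 10.9 CPM in the controls and at 11.98 to 15.2 CPM with tumor sEVs (log2 fold change 0.50, SE 0.16), and its P was over 0.05 without sEV-CTRL 1. Of 24 genes listed for extracellular matrix and the TGF-beta response, 13 had a fitted level above control and 11 below, and 0 passed as higher. Without sEV-CTRL 2, 5 passed as higher and 1 as lower, beside 4.49% of all genes higher in that fit. Without sEV-NORM 1, 2 passed as higher and 2 as lower, beside 0.9% of all genes higher.

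Abhd2, a lipid hydrolase, and Echdc1, an enzyme that removes a malformed acyl-CoA of fatty acid metabolism, had high counts and small differences. Abhd2 (ENSMUSG00000039202, chromosome 7, 79273199 to 79365508) was at 94.5, 105 and 91.1 CPM in the controls, at 123, 131 and 129 CPM with sEV-NORM and at 141 and 123 CPM with sEV-HYP. The log2 fold changes were 0.40 (SE 0.13) for sEV-NORM and 0.44 (SE 0.14) for sEV-HYP, apart by 0.05 (SE 0.14), and 0.42 (SE 0.11, edgeR unadjusted P = 0.0035) when pooled. Echdc1 was at 162.5, 149 and 140 CPM in the controls, at 180.5, 178 and 189 CPM with sEV-NORM and at 229 and 239 CPM with sEV-HYP. It was the only leading gene that also differed between the sEV types, with a log2 fold change of 0.36 (SE 0.14, edgeR unadjusted P = 0.0312) for sEV-HYP against sEV-NORM. None of the 18 genes tested for fatty acid and triglyceride synthesis, 18 for lipolysis and fatty acid oxidation, 20 for cholesterol biosynthesis or 13 for white adipocytes passed in either direction. Of all genes, 1.45% did.

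The last leading higher genes were Apol7b, of the apolipoprotein L family, Plekhh1, a pleckstrin homology domain protein, Arfgef3, of the family of ARF exchange factors, and Ctse, the aspartic protease cathepsin E. Apol7b was at 0.493 to 1.07 CPM in the controls and at 1.37 to 3.42 CPM with tumor sEVs, and had the smallest P of the 12 (log2 fold change 1.78, SE 0.43, edgeR unadjusted P = 0.00214). The log2 fold changes of the others were 0.63 (SE 0.18) for Plekhh1, 0.99 (SE 0.32) for Arfgef3 and 0.44 (SE 0.15) for Ctse. Gm14288, a predicted protein-coding gene on chromosome 2 (175789357 to 175801093), stood further apart, at 5.48, 3.33 and 10.9 CPM in the controls, at 22.8, 20.6 and 20.5 CPM with sEV-NORM and at 29.6 and 16.2 CPM with sEV-HYP. Its log2 fold change was 1.75 (SE 0.36, edgeR unadjusted P = 0.000652, DESeq2 adjusted P = 0.00483), of 1.70 for sEV-NORM and 1.81 for sEV-HYP. Of the other predicted genes, Gm44135 was at 0.383 to 0.457 CPM in the controls and at 0.910 to 1.56 CPM with tumor sEVs (log2 fold change 1.45, SE 0.37), and Gm7666, which lies within Fyb on the same strand, was at 3.06 to 4.38 CPM and at 1.75 to 2.70 CPM (log2 fold change -0.83, SE 0.24). Gm14288 and Apol7b belong to families of near-identical neighbouring genes, and how reads were divided among copies is uncertain.

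**Figure D2:**
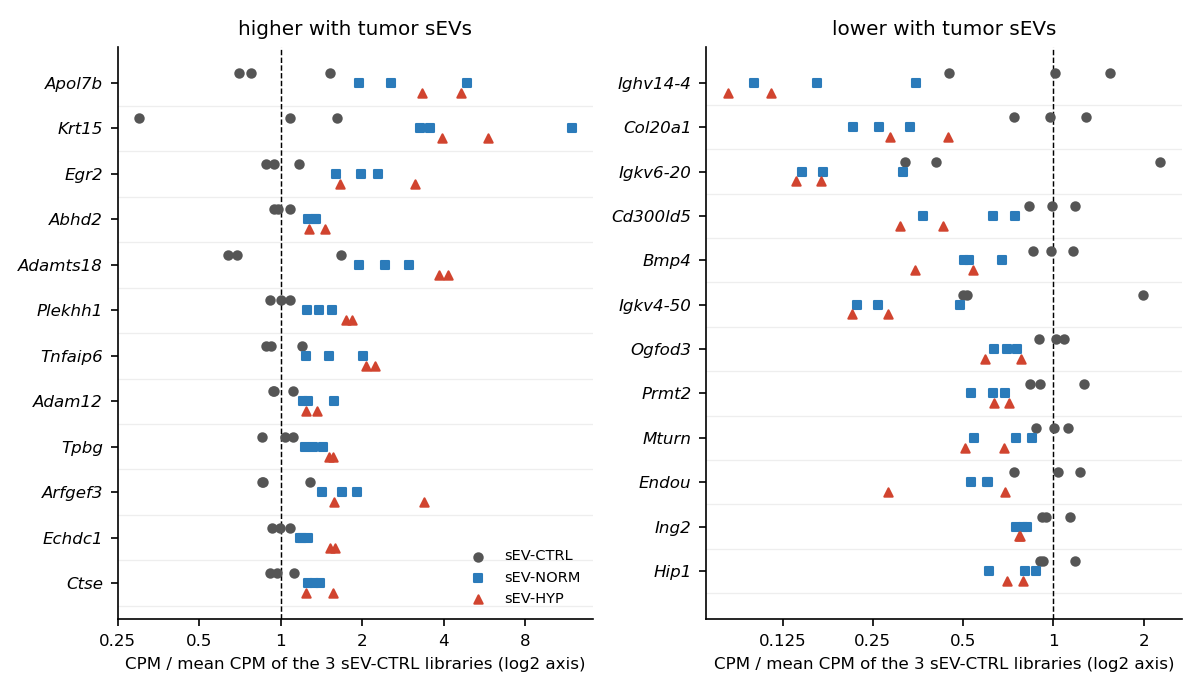
Level of each of the 12 leading higher and 12 leading lower genes in every library, as CPM divided by the mean CPM of the 3 sEV-CTRL libraries (log2 axis, 1 is the control mean), with points for sEV-CTRL (n = 3), sEV-NORM (n = 3) and sEV-HYP (n = 2). Genes were chosen so that tumor sEV and control points do not overlap, and for Igkv6-20 and Igkv4-50 a single control library lies far above the other controls.

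Among the genes lower with tumor sEVs of both types, Bmp4, a secreted ligand of the bone morphogenetic protein family that acts in mammary development, was at 3.50, 3.06 and 4.16 CPM in the controls, at 2.41, 1.86 and 1.80 CPM with sEV-NORM and at 1.24 and 1.93 CPM with sEV-HYP. Every tumor sEV library lay below every control. Bmp4 (ENSMUSG00000021835, chromosome 14, 46383520 to 46390669) differed by a log2 fold change of -0.95 (SE 0.26, edgeR unadjusted P = 0.00504), of -0.82 for sEV-NORM and -1.18 for sEV-HYP. Col20a1 (ENSMUSG00000016356, chromosome 2, 180986535 to 181018363), a collagen chain, was at 1.07, 1.41 and 1.86 CPM in the controls, at 0.483, 0.311 and 0.379 CPM with sEV-NORM and at 0.412 and 0.642 CPM with sEV-HYP, with a log2 fold change of -1.69 (SE 0.37, edgeR unadjusted P = 0.00104). Both kept an unadjusted P under 0.05 with any 1 library left out, with log2 fold changes of -1.06 to -0.82 for Bmp4 and of -1.88 to -1.47 for Col20a1.

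Cd300ld5, of the CD300 family of myeloid cell receptors, was at 29.45, 35.1 and 41.8 CPM in the controls, at 22.2, 26.4 and 13.0 CPM with sEV-NORM and at 15.2 and 10.9 CPM with sEV-HYP (log2 fold change -1.01, SE 0.27, edgeR unadjusted P = 0.0043). Of 18 macrophage and dendritic cell markers tested, 0 passed in either direction, beside 1.45% of all genes, and their median log2 fold change was 0.02. The CD300 genes are closely related to each other, so the assignment of reads to this member is uncertain. The remaining leading lower genes have diverse roles. They were the oxygenase-domain gene Ogfod3 (log2 fold change -0.53, SE 0.15), the arginine methyltransferase Prmt2 (-0.64, SE 0.20), the differentiation factor gene Mturn (-0.58, SE 0.19), the endoribonuclease Endou (-0.89, SE 0.29), the chromatin-binding Ing2 (-0.36, SE 0.12) and the clathrin adaptor Hip1 (-0.40, SE 0.15). Ing2 was at 17.8 to 19.4 CPM in the tumor sEV libraries against 21.8 to 27.0 CPM in the controls. The P of Prmt2 and Hip1 was over 0.05 without sEV-CTRL 3, and that of Endou and Ing2 without sEV-CTRL 1. Of all 24 leading genes, 18 kept a P under 0.05 in each of the 8 fits with 1 library left out, 11 of the higher and 7 of the lower genes. Among all 251 genes that passed, 34 did. The 24 were chosen for a small P in these same libraries, which favors this outcome.

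For several of these genes another gene lies on the opposite strand, as Pigh does at Plekhh1, Rnf146 at Echdc1 and Hexdc at Ogfod3, and whether strand was used in counting is not given in the sources used here. At Col20a1 another gene, BX649560.1, overlaps on the same strand, so the assignment of reads to Col20a1 is uncertain. Col20a1 had 7 to 12 counts per tumor sEV library and 21 to 34 per control library. With the muscle content of each library as a covariate, the log2 fold changes were 1.09 for Egr2, 0.42 for Abhd2, -0.95 for Bmp4 and -1.68 for Col20a1, each with an edgeR unadjusted P under 0.05. The sequences before the start of these 4 genes are shown because the study concerns HIF1α carried by sEVs: they are the genes of smallest P, a pair in each direction, that have no near-identical copies and have an entry in RefSeq's promoter table.

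For each gene the 250 bases upstream of the RefSeq transcript start are given 5′ to 3′ on the gene's strand (RefSeq, GRCm38.p6), with matches to the HIF core motif, ACGTG or GCGTG on either strand, in capitals. Of 5 windows listed for Egr2, the one nearest the annotated start is shown. It lies on the plus strand at chr10:67535249-67535498, Abhd2 on the plus strand at chr7:79273016-79273265, Bmp4 on the minus strand at chr14:46390670-46390919 and Col20a1 on the plus strand at chr2:180986285-180986534. The gene starts given above are those of GENCODE, so the last 24 bases shown for Egr2 and the last 67 for Abhd2 lie within the GENCODE gene, and the match in Egr2 spans its GENCODE start.
Egr2: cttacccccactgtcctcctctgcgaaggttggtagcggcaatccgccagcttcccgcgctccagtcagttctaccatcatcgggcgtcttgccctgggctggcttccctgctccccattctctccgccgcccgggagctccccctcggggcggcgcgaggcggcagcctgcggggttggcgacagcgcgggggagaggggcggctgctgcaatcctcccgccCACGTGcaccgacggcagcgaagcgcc
Abhd2: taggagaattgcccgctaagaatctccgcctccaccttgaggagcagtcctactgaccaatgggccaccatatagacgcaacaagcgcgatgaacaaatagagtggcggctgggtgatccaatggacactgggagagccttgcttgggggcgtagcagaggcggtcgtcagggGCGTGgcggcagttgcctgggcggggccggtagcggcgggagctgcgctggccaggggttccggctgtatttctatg
Bmp4: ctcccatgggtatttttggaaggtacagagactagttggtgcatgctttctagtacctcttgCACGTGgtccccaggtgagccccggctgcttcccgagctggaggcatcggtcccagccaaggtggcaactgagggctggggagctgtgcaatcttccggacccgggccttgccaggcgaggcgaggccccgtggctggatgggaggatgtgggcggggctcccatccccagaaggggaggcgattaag
Col20a1: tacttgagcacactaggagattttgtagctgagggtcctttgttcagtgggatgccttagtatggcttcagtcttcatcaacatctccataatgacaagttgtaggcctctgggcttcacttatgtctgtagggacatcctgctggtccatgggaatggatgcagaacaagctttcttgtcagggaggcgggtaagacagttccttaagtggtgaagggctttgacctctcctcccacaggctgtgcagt
In Egr2 and Bmp4 the match is the palindrome CACGTG, which counts once on each strand, Abhd2 holds 1 match and Col20a1 none. Of the common genes with an entry, 21 of 36 higher genes (58.3%) and 15 of 26 lower genes (57.7%) held the motif, in at least 1 of their windows, against 6983 of the 12035 genes tested that have an entry (58%) and 12679 of all 32851 windows of the table (38.6%). The shares of higher, lower and all tested genes are close to each other, and a match describes letters only, with no measure of binding.

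**Figure D3:**
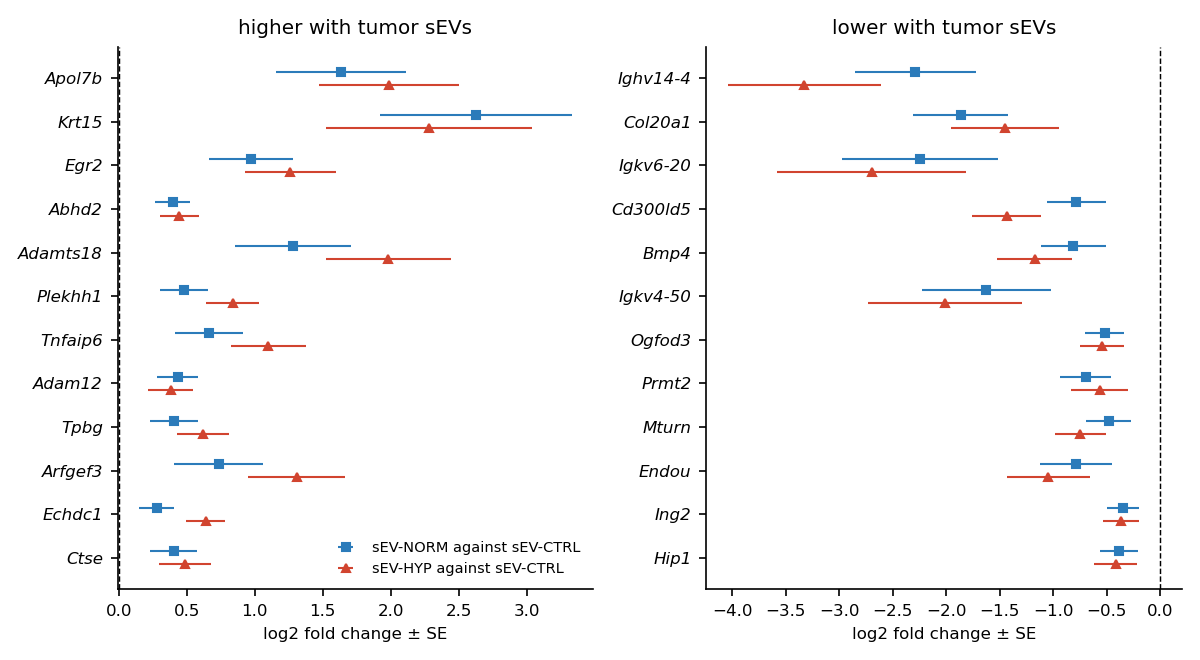
Log2 fold change ± SE (edgeR, 3-group model) of the 24 leading genes for sEV-NORM (n = 3, blue squares) and for sEV-HYP (n = 2, red triangles), each against the same 3 sEV-CTRL libraries. For every gene both points lie on the same side of 0, as the choice of these genes requires, and Echdc1 alone had an unadjusted P under 0.05 between the sEV types.

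Immunoglobulin variable segments, the gene pieces that encode the antigen-binding part of antibodies, held 3 of the 12 leading lower genes. Ighv14-4 (ENSMUSG00000076666, chromosome 12, 114176438 to 114176867) had the smallest P of all genes (edgeR unadjusted P = 0.000468, DESeq2 adjusted P = 0.008), at 2.34, 5.29 and 8.05 CPM in the controls, at 0.523, 1.82 and 0.852 CPM with sEV-NORM and at 0.596 and 0.428 CPM with sEV-HYP. Its log2 fold change was -2.62 (SE 0.51), and -3.11 to -2.17 with any 1 library left out. Igkv6-20 was at 3.35, 2.65 and 18.8 CPM in the controls and at 1.15 to 2.60 CPM with tumor sEVs, so that sEV-NORM 3 at 2.60 CPM was close to sEV-CTRL 2. DESeq2 gave a log2 fold change of -2.42 for Igkv6-20 but no P. Igkv4-50 was at 6.50, 1.69 and 1.64 CPM in the controls and at 0.696 to 1.60 CPM with tumor sEVs, and its P was over 0.05 without sEV-CTRL 1. In both, 1 control library lay far above the others, and the log2 fold change went from -2.41 to -0.95 without sEV-CTRL 3 for Igkv6-20 and from -1.77 to -0.81 without sEV-CTRL 1 for Igkv4-50.

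The segments were looked at as a class after these values were seen. Of 148 tested, 14 were lower and 0 higher at an unadjusted P under 0.05, that is 9.46% lower, against 0.699% of all genes, while their median log2 fold change was -0.05, with 76 segments below and 72 above control. Summed over segments, the level was 3595, 599 and 980 CPM in sEV-CTRL 1 to 3, 736, 2361 and 1363 CPM in sEV-NORM 1 to 3, and 1573 and 442 CPM in sEV-HYP 1 and 2. The groups overlapped, sEV-CTRL 1 the highest and sEV-HYP 2 the lowest. By sEV type the median log2 fold change of the segments was 0.11 for sEV-NORM and -1.02 for sEV-HYP. Igkv2-112 shows how much a single library can weigh: it was at 290.5 CPM in sEV-CTRL 1 and at 0.228 to 1.33 CPM in the other libraries, and passed with a log2 fold change of -7.02 although the groups overlapped. Without sEV-CTRL 1 the median of the segments was 0.79 and 4 were lower at P under 0.05, without sEV-CTRL 2 it was -0.42 with 26, and without sEV-CTRL 3 it was -0.15 with 20. Of all genes, 1.17%, 2.89% and 0.524% were lower in these fits. Markers of B and plasma cells followed the same libraries, summing to 4721, 1954 and 2004 CPM in the controls, to 2560, 4184 and 2372 CPM with sEV-NORM and to 2590 and 1545 CPM with sEV-HYP, and of 14 tested, 1 passed, Sdc1, as higher (log2 fold change 0.50, SE 0.19), with a P over 0.05 without any one of sEV-CTRL 2, sEV-CTRL 3, sEV-HYP 1 and sEV-NORM 3. Sdc1, syndecan-1, is made by plasma cells and by epithelium. Segments resemble each other in sequence and differ between antibody-producing clones, so single segments are uncertain.

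The gene lists held about as many calls as genes at large. In 33 lists, 20 of pathways and 13 of cell type markers, 580 different genes were tested, of which 6 were higher (1.03%, beside 0.751% of all genes) and 4 lower (0.69%, beside 0.699%) at an unadjusted P under 0.05. The higher genes were Egr1, Egr2, Sdc1, Dsg1a, Dio2 and Lyve1, and the lower genes included Fas, Herpud1 and Tie1. List medians ran from -0.23 (peripheral nerve) to 0.91 (keratinocyte and skin, 3 genes tested), beside 0.0047 for all genes. The keratinocyte and skin median was 0.08 without sEV-NORM 3. In 22 of the 33 lists the median had the other sign under at least 1 alternative setting.

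Of 21 HIF targets tested, genes that HIF1α can induce in low oxygen, 13 had a fitted level above control and 8 below, with a median log2 fold change of 0.08 (0.04 with sEV-NORM, 0.13 with sEV-HYP). None passed as higher with all libraries. Without sEV-CTRL 2, 3 passed as higher and 0 as lower, beside 4.49% of all genes higher in that fit. Vegfa, the vascular growth factor, was at 58.8 to 88.5 CPM in the controls and at 52.9 to 113 CPM with tumor sEVs. Hif1a itself was at 365, 428 and 253 CPM in the controls, at 357, 646 and 386 CPM with sEV-NORM and at 403 and 453 CPM with sEV-HYP. The groups overlapped (log2 fold change 0.36, SE 0.23, edgeR unadjusted P = 0.151). S100a9, a calcium-binding protein of neutrophils and other myeloid cells, ranged from 2.10 to 23.2 CPM in the controls and from 1.55 to 47.7 CPM with tumor sEVs (log2 fold change 0.40, SE 0.96, edgeR unadjusted P = 0.686), highest in sEV-NORM 2 and lowest in sEV-HYP 2.

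Vascular genes were mostly below control, by little. Of all genes, 51.0% had a fitted level above control. Of 24 angiogenesis genes, 20 had a fitted level below control, with a median log2 fold change of -0.11, and of 12 endothelial markers 10 did, with a median of -0.16. Both medians stayed below 0 under every setting tried, but their size depended on the controls, at -0.21 without sEV-CTRL 1 and -0.03 without sEV-CTRL 3 for angiogenesis and at -0.27 and -0.07 for endothelium. Tie1, a receptor of endothelial cells, was the only angiogenesis gene that passed, as lower, beside 0.699% of all genes. It was at 13.2, 14.1 and 18.4 CPM in the controls, at 13.6, 10.2 and 11.4 CPM with sEV-NORM and at 9.85 and 11.6 CPM with sEV-HYP (log2 fold change -0.43, SE 0.17, edgeR unadjusted P = 0.0305). Its P was over 0.05 without any one of sEV-CTRL 3, sEV-HYP 1, sEV-NORM 2 and sEV-NORM 3. Lyve1, a hyaluronan receptor of lymphatic vessels and some macrophages, went the other way, at 87.0, 86.6 and 62.6 CPM in the controls, at 133, 108 and 90.3 CPM with sEV-NORM and at 110 and 88.6 CPM with sEV-HYP, with no overlap (log2 fold change 0.43, SE 0.17, edgeR unadjusted P = 0.0326), and its P was over 0.05 without any one of sEV-CTRL 3, sEV-HYP 1 and sEV-NORM 1. Pecam1, the endothelial adhesion molecule, overlapped at 242 to 299 CPM in the controls and 215 to 273 CPM with tumor sEVs.

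Of 29 apoptosis genes, 13 were above and 16 below control, with a median log2 fold change of -0.02. Fas, the death receptor, passed as lower without overlap, at 45.5, 43.7 and 45.1 CPM in the controls, at 35.6, 35.8 and 41.2 CPM with sEV-NORM and at 32.0 and 37.0 CPM with sEV-HYP. The controls were close together, and the log2 fold change was -0.30 (SE 0.11, edgeR unadjusted P = 0.0246), with a P over 0.05 without any one of sEV-CTRL 1, sEV-HYP 1 and sEV-NORM 1. Of 17 necroptosis genes, 0 passed, beside 1.45% of all genes in either direction. Among 22 genes of the unfolded protein and heat shock response, 17 were below control, where 51.0% of all genes were above it. Of the 22, 1 passed, as lower, beside 0.699% of all genes. This was Herpud1, a component of endoplasmic reticulum-associated degradation (190.6 to 260 CPM in the controls, 143 to 206 CPM with tumor sEVs). Its log2 fold change was -0.40 (SE 0.16), with a P over 0.05 without any one of sEV-CTRL 1, sEV-HYP 1 and sEV-NORM 1. Oxidative phosphorylation had 41 of 52 genes below control with a median of -0.10, and glycolysis 8 of 20 below with a median of 0.01. No gene of either list passed with all libraries. Without sEV-CTRL 3, 31 of the 52 oxidative phosphorylation genes were above control, with a median of 0.02. Without sEV-CTRL 2, 5 of them passed as lower, beside 2.89% of all genes lower in that fit. The glycolysis median was -0.14 without sEV-HYP 2 and 0.10 without sEV-CTRL 3. By sEV type, sEV-NORM first, the medians were -0.21 and 0.06 for oxidative phosphorylation and -0.34 and 0.28 for glycolysis, and these differences were not tested.

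**Figure D4:**
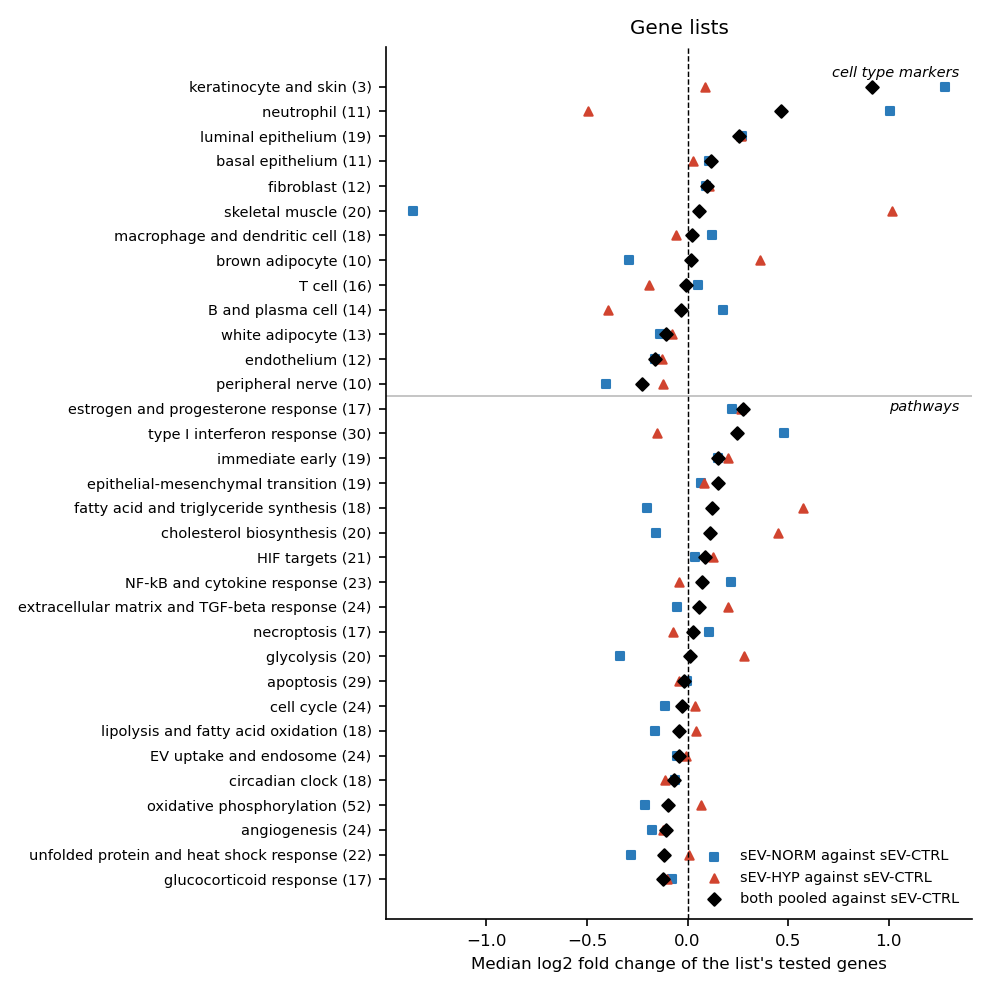
Median log2 fold change of the tested genes of each list (number tested in brackets) for sEV-NORM, sEV-HYP and both pooled, against the same sEV-CTRL libraries, with cell type markers in the upper and pathways in the lower block. The pooled medians run from -0.23 (peripheral nerve) to 0.46 (neutrophil) and 0.91 (keratinocyte and skin, 3 genes tested). The neutrophil median was -0.09 without sEV-NORM 2, and that of keratinocyte and skin was 0.08 without sEV-NORM 3. The lists farthest apart by sEV type are skeletal muscle (-1.37 and 1.02) and neutrophil (1.01 and -0.50).

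In some lists the pooled result turned on single libraries. Of 30 type I interferon response genes, which cells switch on against viruses, 29 had a fitted level above control, 0 passed, and the median log2 fold change was 0.25 pooled, 0.48 for sEV-NORM and -0.15 for sEV-HYP. Their summed level was 1098, 2068 and 1087 CPM in sEV-CTRL 1 to 3, 2453, 1802 and 1451 CPM in sEV-NORM 1 to 3, and 1447 and 1338 CPM in sEV-HYP 1 and 2. All tumor sEV libraries were above sEV-CTRL 1 and sEV-CTRL 3, and only sEV-NORM 1 was above sEV-CTRL 2. Ifit1, an interferon-induced RNA-binding protein, likewise exceeded sEV-CTRL 2 in sEV-NORM 1 alone, at 17.5, 54.6 and 16.04 CPM in the controls, at 74.5, 43.4 and 36.8 CPM with sEV-NORM and at 27.5 and 30.6 CPM with sEV-HYP (log2 fold change 0.53, edgeR unadjusted P = 0.264). Without sEV-CTRL 2 the median was 0.86 and 12 of the 30 genes were higher at an unadjusted P under 0.05, beside 4.49% of all genes in that fit. Without sEV-NORM 1 the median was -0.04, with 14 of 30 genes above control, and without sEV-CTRL 1 or sEV-CTRL 3 it was 0.06 or 0.11.

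Cell cycle genes depended on sEV-CTRL 1 in the same manner. The 24 genes summed to 1366, 556 and 534 CPM in sEV-CTRL 1 to 3, to 698, 895 and 721 CPM with sEV-NORM and to 1059 and 639 CPM with sEV-HYP. With all libraries 10 were above and 14 below control, 0 passed and the median log2 fold change was -0.03. Without sEV-CTRL 1 all 24 were above control, 13 of them at an unadjusted P under 0.05, with a median of 0.71, beside 1.42% of all genes higher in that fit. The median was 0.02 without sEV-HYP 2 and below 0 without any other library, down to -0.29 without sEV-CTRL 2. Mki67, the proliferation antigen Ki-67, was at 329.6 CPM in sEV-CTRL 1, at 69.2 and 76.6 CPM in the other controls, and at 88.9 to 190 CPM with tumor sEVs. B and plasma cell markers were also highest in sEV-CTRL 1, and their part in the cell cycle values was not tested.

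Epithelial and hormone-response genes were mostly above control, and none passed with all libraries. Of 19 luminal epithelial markers, 17 had a fitted level above control with a median log2 fold change of 0.26, and of 17 estrogen and progesterone response genes 15 did, with a median of 0.27, and 0 genes passed in either list. Both medians were above 0 under every setting tried and by sEV type, sEV-NORM first, were 0.27 and 0.27 for the luminal list and 0.22 and 0.27 for the hormone list. They fell to 0.07 and 0.11 without sEV-CTRL 1 and were 0.40 and 0.38 without sEV-CTRL 2. In the fit without sEV-CTRL 2, 5 genes of each list passed as higher, beside 4.49% of all genes. There 1 luminal gene passed as lower, beside 2.89% of all genes. As higher, 3 luminal genes passed without sEV-NORM 2 and 2 without sEV-CTRL 3, beside 0.806% and 0.868% of all genes. Foxa1, a pioneer factor of luminal cells that is in both lists, came closest, at 35.8, 55.7 and 45.9 CPM in the controls, at 99.9, 47.7 and 72.5 CPM with sEV-NORM and at 65.5 and 50.6 CPM with sEV-HYP (edgeR unadjusted P = 0.0514). Of 19 genes of the epithelial-mesenchymal transition, 0 passed with all libraries. Without sEV-CTRL 2, 5 passed as higher and 0 as lower, beside 4.49% of all genes higher. Without sEV-NORM 2, 2 passed as higher and 0 as lower, beside 0.806% of all genes higher. Lbx1, a homeobox gene of that list, was at 0.274 to 0.593 CPM in the controls, at 0.0444 to 0.331 CPM with sEV-NORM and at 3.57 and 9.80 CPM with sEV-HYP, so that both sEV-HYP libraries lay above all others while every sEV-NORM library was within or below the range of the controls. Dio2, the deiodinase that activates thyroid hormone in brown fat, passed when pooled (log2 fold change 1.95, SE 0.75, edgeR unadjusted P = 0.0263), but at 0.925 CPM in sEV-NORM 1 it lay below all controls, and at 15.95 CPM in sEV-HYP 2 far above them. Its P was over 0.05 without any one control or without sEV-HYP 2, and of 10 brown adipocyte markers tested no other passed.

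**Figure D5:**
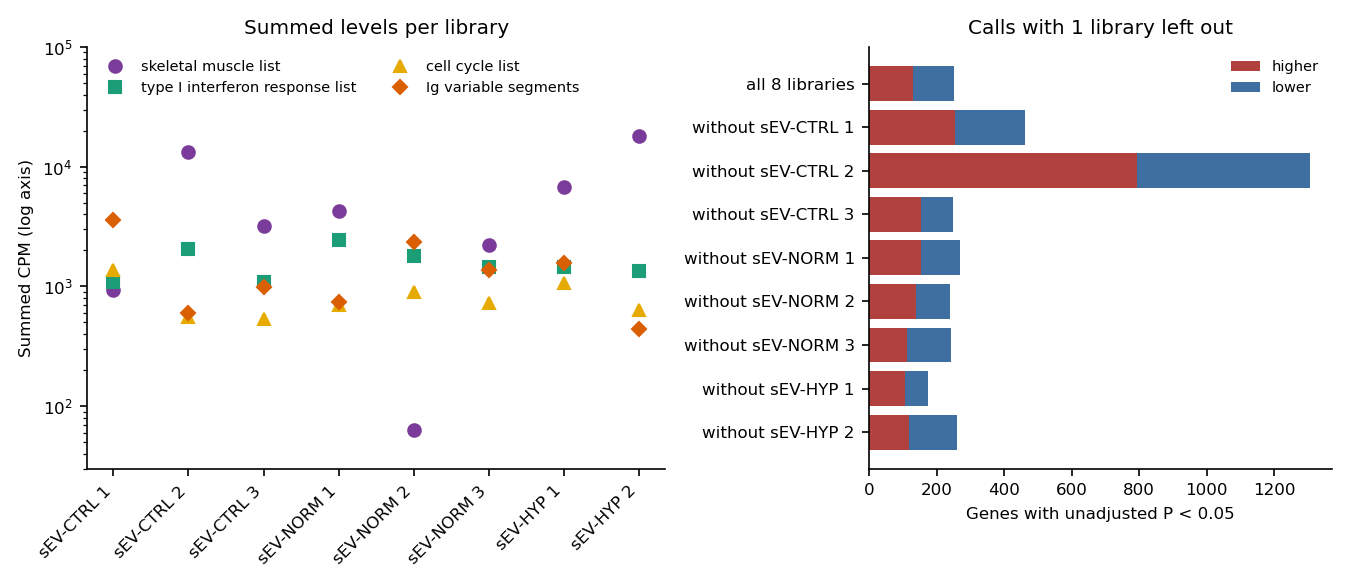
Left, summed CPM (log axis) of 3 gene lists and of the immunoglobulin variable segments in each of the 8 libraries. Right, number of genes with an unadjusted P under 0.05 with all libraries and with each library left out, higher in red and lower in blue. Muscle content ranges from 63.8 CPM in sEV-NORM 2 to 18160 CPM in sEV-HYP 2, and leaving out sEV-CTRL 2 raises the number of genes from 251 to 1306.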

How the data were processed

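Whole mammary glands were profiled by polyA RNA-seq (Lexogen Sense mRNA-Seq V2, 300 ng of RNA, 13 PCR cycles). The authors aligned reads with STAR to mm10, estimated gene counts with RSEM 1.2.12 on Ensembl annotation and deposited whole-number counts per gene, and how the estimates became whole numbers is not given in the sources used here. Library totals were 18194996 to 24622569 counts, and genes without a symbol held 0.0389% of counts. The authors used DESeq2 for pairs of groups.

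Here the deposited counts of 5 tumor sEV and 3 sEV-CTRL libraries were compared with edgeR 4.0.16 in R 4.3.3 (genes kept by filterByExpr at a count of at least 10, TMM normalization with factors between 0.976 and 1.02, two-sided quasi-likelihood F-test, Benjamini-Hochberg adjustment over 17303 genes), and each sEV type was compared with control in a 3-group model. CPM values use TMM-scaled library sizes, and SEs are the log2 fold change divided by the root of F. Scripts were tested on simulated data. Alternatives were DESeq2 1.42.0 as the test, its size factors in edgeR, the 3-group model, no filter, a minimum of 10 counts in each of the libraries, a block for replicate number, muscle content (mean log2 CPM of 20 markers) as a covariate, each library left out in turn and, added after seeing the data, robust edgeR. Locations come from GENCODE M21 (GRCm38). No use of molecular identifiers is stated, so the precision that depth gives covers counting error only.

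The leading genes are the 12 higher and 12 lower genes of smallest P among those with an unadjusted P under 0.05 and no overlap, leaving out predicted genes and those under a mean of 1 CPM in both pooled groups. Also named were the 3 genes of smallest P, 3 predicted genes chosen likewise, listed genes with P under 0.05, and Hif1a and S100a9. One listed gene is not reported here. Any other gene named was picked with its values in view. The members and gene lists were chosen with earlier results of these data known. Correlations of deviations from the group means ran from -0.437 to 0.392 between same-numbered libraries. Between libraries of different number they ran from -0.392 to 0.503. Deviations of the 2 sEV-HYP libraries mirror each other, so the correlations with sEV-HYP cannot decide whether numbers mark pairs. Between sEV-CTRL and sEV-NORM the same-numbered libraries gave -0.309, -0.437 and -0.00499, and those of different number -0.354 to 0.503. Whether numbers mark pairs was not tested further. Replicate numbers were not used as pairs.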

Additional observations from a re-analysis of the deposited data

Results flagged for a closer look

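In 71 values examined over the 5 tumor sEV libraries, a single library stood apart from the others by Dixon's test (critical value 0.71 for 5 values) in 4 cases, where chance alone gives about 1 in 20. Dsg1a in sEV-NORM 3 (log2 CPM 3.39) and the summed keratinocyte and skin markers in the same library (107 CPM) were far above the other tumor sEV libraries. Igkv6-20 was also highest in sEV-NORM 3 (log2 CPM 1.43), close to the lowest control. The summed genes of the epithelial-mesenchymal transition were lowest in sEV-NORM 2 (1847 CPM, against 2185 to 2324 CPM in the other tumor sEV libraries).

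Of 38 named genes tested for sEV-HYP against sEV-NORM in the 3-group model of edgeR, 2 differed at an unadjusted P under 0.05. Among all 17303 genes tested, 690 did. Echdc1, higher with both sEV types, was further above control with sEV-HYP (log2 fold change against sEV-NORM 0.36, edgeR unadjusted P = 0.0312). S100a9 was lower with sEV-HYP than with sEV-NORM (log2 fold change -2.85, edgeR unadjusted P = 0.0234), so the pooled value of this gene averages libraries that lie apart.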

How the results depend on the processing

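The 251 genes with an unadjusted P under 0.05 were 600 with no filter on low counts, and the common genes without overlap were then 188, and those under 0.05 for each sEV type 105, in place of 113 and 40. DESeq2 gave 2 genes at an adjusted P under 0.05 where edgeR gave 0. With 1 library left out, the 3 counts ran from 174 to 1306, from 112 to 1081 and from 21 to 366, each highest without sEV-CTRL 2 (1306, 1081 and 366) and next highest without sEV-CTRL 1 (461, 377 and 118), and the cause was not tested. The condition of no overlap is easier to meet with fewer libraries. Of the 251 genes, 153 and 119 were among the calls of those fits, and 93 among those without sEV-CTRL 3, against 128 to 173 without any other library.

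Replicate numbers were not used as pairs in the main fit. With the number as a block there were 180 genes, 122 higher and 58 lower, 132 of them shared with the 251, 75 common genes without overlap and 24 for each sEV type, so the split moved from 130 higher and 121 lower. With muscle content as a covariate there were 350 genes, 193 higher and 157 lower.

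Of the named genes with a test, 16 of 36 had a P over 0.05 under at least 1 of 16 alternatives, and none reversed. Of the list medians, 8 of 528 values moved by more than the spread between replicates, those of interferon genes without sEV-CTRL 2 (0.86) and cell cycle genes without sEV-CTRL 1 (0.71) among them. The groups of 3 and 5 libraries limit what differences can be detected.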

Other observations

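Some further genes had an unadjusted P under 0.05 for each sEV type alone, and were chosen after their values were seen. Mest, an imprinted gene associated with adipocyte growth, was at 14.6, 24.3 and 34.2 CPM in sEV-CTRL 1 to 3, at 10.8, 10.3 and 15.7 CPM in sEV-NORM 1 to 3 and at 10.8 and 13.9 CPM in sEV-HYP 1 and 2 (pooled log2 fold change -0.99, SE 0.26, edgeR unadjusted P = 0.00324), with sEV-NORM 3 above sEV-CTRL 1. Mup10, of the major urinary protein family with near-identical copies, was at 58.7 to 170 CPM in the controls and at 159.5 to 423 CPM with tumor sEVs, so the groups overlapped (log2 fold change 1.39, SE 0.41). Alox15, a lipoxygenase that makes lipid mediators from arachidonic acid, overlapped as well, at 0.559 to 1.64 CPM in the controls and 1.60 to 3.02 CPM with tumor sEVs (log2 fold change 1.24). Bmper, a secreted protein that binds bone morphogenetic proteins, was at 11.0 to 16.2 CPM in the controls and at 16.9 to 19.1 CPM with tumor sEVs (log2 fold change 0.48), with no overlap and in the direction opposite to Bmp4. Tbx18, a transcription factor of mesenchymal cells, was at 5.43 to 9.17 CPM in the controls and at 9.61 to 12.1 CPM with tumor sEVs (log2 fold change 0.57).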
